A study of Homo sapiens with 2 samples.

Results

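The cells described here were A549 cells in which no transcript of KRT19 was counted. KRT19 encodes keratin 19, a type I keratin of simple epithelia. Barcodes with at least 10000 gene UMIs (unique molecular identifiers, each standing for 1 captured transcript) were kept, and those with 0 KRT19 UMIs formed the KRT19-zero group of 657 cells. These were 12.4% of the 5317 barcodes at this depth (exact Clopper-Pearson 95% interval 11.5% to 13.3%), of 5744 barcodes in all. The 2953 cells with at least 10 KRT19 UMIs (55.5%) formed the KRT19-high group, and the 1707 cells with 1 to 9 UMIs (32.1%) lay between.

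The cells were A549-TetOn-Cas9 cells, a line derived from a lung adenocarcinoma that carries Cas9 under a doxycycline-inducible promoter, and both groups came from the same culture. A lentiviral CROP-seq pool of 120 designs (100 gRNAs against 25 genes, plus 20 non-targeting controls) had been delivered at a low multiplicity, 0.3. After puromycin selection, Cas9 was induced for 2 days and the cells were grown for 5 more days. The sample labels and the methods name doxycycline as the inducer, while the design text names tamoxifen. A transcriptome library and a gRNA library were made from the same cDNA of 1 pool of cells, so there were no replicate samples. Cells are not replicates, no p-value is given, and all intervals cover counting error only.

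Keratins assemble as pairs of a type I and a type II protein into the intermediate filaments of epithelial cells. In simple epithelia KRT18 and KRT19 are the type I partners of KRT8 and KRT7. Loss of keratins and of cell junction proteins with gain of vimentin and matrix proteins is the textbook pattern of epithelial to mesenchymal transition, and A549 is a line in which this transition is often studied.

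KRT19 itself defined the groups, so its values are a description. Over all cells of the depth kept, KRT19 stood at 582 CPM (counts per 1000000 UMIs), a level that would give 17.4 UMIs in a KRT19-zero cell of median depth. In the KRT19-high pool it stood at 877 CPM, and a single cell held up to 377 UMIs. The 20931285 UMIs of the KRT19-zero pool held none because the rule chose its cells so, and this pooled 0 sets no limit on their level. In 1 KRT19-zero cell of median depth, 3 counts allow 100.04 CPM, so a low level in a single cell was not detectable at this depth. Just outside the group, 349 cells had 1 KRT19 UMI. At the other limit, 131 cells had 9 UMIs and stayed out of the KRT19-high group, and 118 had 10 and entered it.

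Depth moved with membership. KRT19-zero cells had a median of 29989 UMIs and 5085 genes, cells with 1 to 9 KRT19 UMIs 31095 UMIs and 5216 genes, and KRT19-high cells 41123 UMIs and 5920 genes. Mitochondrial transcripts made up 12.8% of the UMIs of the KRT19-zero pool and 11.9% of those of the KRT19-high pool, and ribosomal protein transcripts 19.4% and 19.3%. The share of KRT19-zero cells was 28.5% among cells with 10000 to 20000 UMIs, 12.6% among those with 30000 to 40000 and 3.90% among those with at least 60000. The KRT19 level also rose with depth, from 314 CPM to 650 CPM between the shallowest and the deepest of these classes. When each cell was thinned at random to 10000 UMIs, 1205 cells (22.7%) had no KRT19 UMI, and 657 of them (54.5%) had none before thinning. The comparison of the pools, the gene lists and the chromosome classes were therefore repeated in cells with 20000 to 50000 UMIs, and the shares by gRNA after thinning.

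UMIs of the simple epithelial keratins KRT8 and KRT18 were counted in all 657 KRT19-zero cells, and of KRT7 in 655. The per-cell median was 2009 CPM for KRT8 and 4370 CPM for KRT18, and the lowest cells were at 94.2 and 95.2 CPM. Free RNA in the droplets can also give UMIs of such abundant genes, and its part was not tested. Markers of other cell types were rare: at least 3 of 10 fibroblast markers were detected in 3 KRT19-zero cells and at least 3 of 12 immune and blood cell markers in 3. At least 3 of 10 endothelial markers were detected in 0 of 657 cells, which allows a share of up to 0.457% of cells with such UMIs. This limits detection and not expression, since all but 1 of these markers had under 50 UMIs in both pools. At least 3 of 10 markers of HEK293T, the usual packaging line for lentivirus, were detected in 20 of 657 KRT19-zero and 132 of 2953 KRT19-high cells. The KRT19-high cells were also deeper, which makes detection easier. Summed over the HEK293T list, the level was 32.1 CPM in the KRT19-zero and 28.1 CPM in the KRT19-high pool.

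Across the transcriptome the groups were close. For each gene the summed UMIs of a group's cells gave its CPM, and with 1 CPM added the log2 of KRT19-zero over KRT19-high was taken, which understates the change of low genes. A minimum of 50 UMIs in 1 of the pools left 14416 genes, of which 75.4% lay within 0.2 of 0 on the log2 scale. The KRT19-high pool held 129983567 UMIs and the KRT19-zero pool 20931285. Genes of low level thus met this minimum more readily through the KRT19-high pool. Counts of lower genes, here and in the lists, can therefore hold more low-level genes than counts of higher genes. A log2 ratio of 0.5 or more was reached by 162 genes (1.12%, "higher" below) and one of -0.5 or less by 256 genes (1.78%, "lower"), so 2.9% passed in either direction. The median was 0.00 and 50.6% of genes lay above 0.

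Of the 15 genes furthest down, AGR2, TM4SF4 and GPX2 were members of the secretory epithelial list described below. PDZK1IP1, a small membrane protein of epithelia, fell from 31.9 CPM in the KRT19-high to 8.79 CPM in the KRT19-zero pool (ratio 0.276, interval 0.237 to 0.320). Through the cells with 1 to 2, 3 to 9, 10 to 24 and at least 25 KRT19 UMIs it stood at 11.9, 14.3, 23.8 and 37.4 CPM. PDZK1IP1 was thus ordered over all 5 classes of KRT19 count, an order that its choice as an extreme of the pools fixed in part.

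AGR2, a protein disulfide isomerase of mucus-producing cells, fell from 177 to 68.3 CPM (ratio 0.385, interval 0.365 to 0.406). The interquartile range of AGR2 was 0 to 75.3 CPM over KRT19-zero cells and 33.1 to 236 CPM over KRT19-high cells, so the groups overlapped widely. GPX2, a glutathione peroxidase of gut and airway epithelium, fell from 389 to 169 CPM (ratio 0.434, interval 0.419 to 0.449). Its per-cell median was 34.8 CPM in KRT19-zero and 173 CPM in KRT19-high cells, and individual KRT19-zero cells still reached 3771 CPM.

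Other genes among the lowest 15 were less abundant. The protease PRSS3 (mesotrypsin) stood at 5.40 against 16.96 CPM, although its reads can be shared with the near-identical trypsinogen genes. ANXA13, an annexin of intestinal and kidney epithelium, stood at 6.78 against 19.9 CPM, and TM4SF4, a tetraspan membrane protein, at 4.87 against 13.02 CPM. FGFBP1, a secreted carrier of fibroblast growth factors, stood at 3.92 against 10.4 CPM. All 4 were lower by the criterion above.

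The rest of the 15 were C4BPB (a chain of complement C4b-binding protein), PIP (prolactin-induced protein), C1orf116, KRT15, CSAG1 (a cancer-testis antigen), SPINK6 (a protease inhibitor), RRAD (a small GTPase) and KLRC2 (a lectin-like receptor of natural killer cells). Their log2 ratios ran from -1.56 for C4BPB to -1.19 for KLRC2. All but SPINK6 had under 50 UMIs in the KRT19-zero pool, from 8 for CSAG1 to 45 for RRAD. They met the minimum only through the KRT19-high pool. CSAG1 and KLRC2 have near-identical copies. SPINK6 was uneven between sets of cells, with log2 ratios of -4.17 in cells with 1 non-targeting gRNA and -0.77 in cells without a called gRNA. Each of the 15 was chosen to lie on the same side of 0 in cells without a called gRNA, with 1 non-targeting and with 1 targeting gRNA, so that agreement is part of the choice. Within 22 gRNAs that had at least 5 cells of each group, these genes were lower in 13 to 20 gRNAs each (median 17). These cells are part of the pools that chose the genes, so the counts are a description and no support.

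The gene furthest up, NPTX1, a secreted pentraxin of synapses, rose from 2.02 CPM in the KRT19-high to 13.6 CPM in the KRT19-zero pool (ratio 6.73, interval 5.67 to 7.99), on 263 and 285 UMIs. Over the classes of KRT19 count it stood at 13.6, 10.4, 4.04, 2.54 and 1.67 CPM. NTRK3, the receptor of neurotrophin 3, rose from 6.75 to 19.1 CPM (ratio 2.82, interval 2.50 to 3.18). CPLX2, a complexin that regulates vesicle fusion, rose from 66.6 to 154 CPM (ratio 2.32, interval 2.22 to 2.41).

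KCNJ6, a potassium channel subunit, stood at 5.97 against 1.57 CPM, and SNAP25, a SNARE protein of vesicle fusion, at 14.8 against 7.73 CPM. SUSD2, a membrane protein with a sushi domain, stood at 16.3 against 4.76 CPM. TESC, a calcium-binding protein, stood at 139 against 71.2 CPM, and SAMD11 at 65.1 against 29.8 CPM. SAMD11 was also higher within 21 of the 22 gRNAs, and NPTX1 within 10 of them with 9 lower. PDK4, the kinase that inhibits pyruvate dehydrogenase, stood at 25.1 against 13.4 CPM.

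The remaining 6 were LINC01433, HHIPL2, ATOH8 (a helix-loop-helix transcription factor), SLC16A6 (a monocarboxylate transporter), AC092069.1 and DDIT3, between 1.26 and 0.90 on the log2 scale. DDIT3, a stress-induced transcription factor, had 17.8% of its KRT19-zero UMIs in 1 cell, and its log2 ratio ran from 0.21 to 1.27 over the 3 sets of cells. Within the 22 gRNAs the 15 genes were higher in 9 to 21 gRNAs each (median 14). Cells with 3 to 9 KRT19 UMIs lay between the pools for 14 of the 15 lowest and 14 of the 15 highest genes, and cells with 1 to 2 UMIs for 11 and 13. All 5 classes of KRT19 count were in order for 7 of the lowest and 10 of the highest genes. The lowest class is the KRT19-zero pool, and the classes from 10 UMIs on make up the KRT19-high pool. The choice of the genes from these pools thus fixed part of the order. Median depth also rose over the classes, from 29989 UMIs at 0 KRT19 UMIs to 45297 at 25 or more. The order is therefore a description and no support for a graded relation to KRT19.

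**Figure D1:**
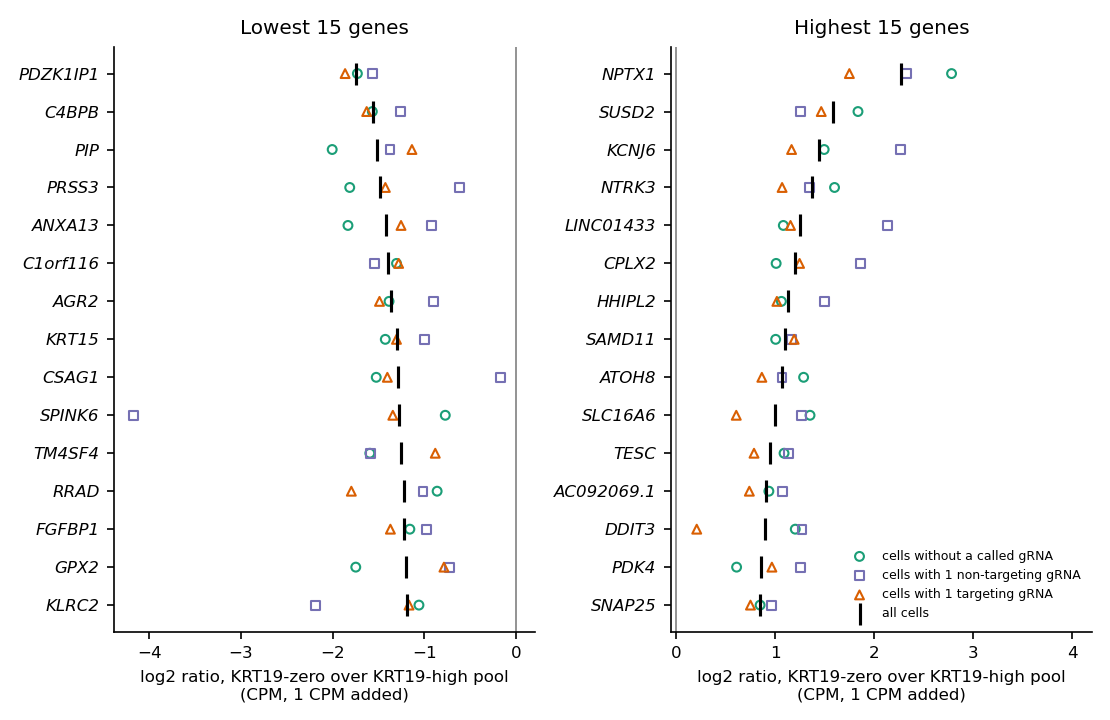
Log2 ratio of KRT19-zero over KRT19-high pools (x axis) for the 15 lowest (left) and 15 highest genes (right). Black ticks are all cells, and open symbols the same ratio in cells without a called gRNA (304 and 1132 cells), with 1 non-targeting gRNA (73 and 349) and with 1 targeting gRNA (258 and 1317). Every symbol lies on its gene's side of 0, as the choice required, and the smallest set scatters most.

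Promoters of some of the lowest and highest genes are shown so that the genes that moved together can be compared by sequence. RefSeq windows (GRCh38.p14, 250 bases before to 50 after the start) were held for 14 promoters of the lowest and 10 of the highest genes, with 3 windows for C4BPB and 2 each for SPINK6 and DDIT3, which overlap in part. None was held for KRT19, KRT15, ANXA13, RRAD, KLRC2, NPTX1, SUSD2, SLC16A6, TESC, SNAP25 or AC092069.1. CACCTG, the E-box bound by SNAI and ZEB factors, was present on either strand in 5 of the 14 (AGR2, C1orf116, GPX2, PIP and PRSS3), in 0 of the 10, and in 20.6% of all 35116 promoters. GGGCGG, the GC box bound by SP1, was present in 1 of the 14, in 7 of the 10 (both DDIT3 windows among them), and in 45.0% of all promoters. GGAATG, the TEAD site, was present in 4 and 0 (14.0% of all), and 2 of the 4 were overlapping windows of C4BPB. TGTTTAC, the forkhead site, was present in 2 and 0, both of C4BPB (3.42%). TGACTCA, the AP-1 site, was present in 1 and 2, the latter both of DDIT3 (4.95%), and TATAAA in 1 and 1 (11.5%). A match is a description of letters, binding was not measured, and the counts were not tested. Capitals mark these 6 motifs on either strand in 3 of the lowest genes, AGR2 (chr7:16804950-16805249, minus strand), GPX2 (chr14:64942696-64942995, minus strand) and PRSS3 (chr9:33795311-33795610, plus strand), and in 2 of the highest, NTRK3 (chr15:88256690-88256989, minus strand) and KCNJ6 (chr21:37916408-37916707, minus strand), each written along its gene's strand.
AGR2: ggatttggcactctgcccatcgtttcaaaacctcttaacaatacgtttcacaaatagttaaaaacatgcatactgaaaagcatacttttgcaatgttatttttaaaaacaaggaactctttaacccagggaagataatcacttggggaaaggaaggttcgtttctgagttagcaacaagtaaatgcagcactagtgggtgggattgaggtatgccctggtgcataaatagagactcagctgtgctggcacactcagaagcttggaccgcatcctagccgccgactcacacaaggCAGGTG
GPX2: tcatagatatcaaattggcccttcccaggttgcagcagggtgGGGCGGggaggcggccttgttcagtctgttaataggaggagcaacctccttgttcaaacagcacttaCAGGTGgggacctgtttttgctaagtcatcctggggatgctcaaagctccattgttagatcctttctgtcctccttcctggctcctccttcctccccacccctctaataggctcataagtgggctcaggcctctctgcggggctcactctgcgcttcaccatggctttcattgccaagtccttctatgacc
PRSS3: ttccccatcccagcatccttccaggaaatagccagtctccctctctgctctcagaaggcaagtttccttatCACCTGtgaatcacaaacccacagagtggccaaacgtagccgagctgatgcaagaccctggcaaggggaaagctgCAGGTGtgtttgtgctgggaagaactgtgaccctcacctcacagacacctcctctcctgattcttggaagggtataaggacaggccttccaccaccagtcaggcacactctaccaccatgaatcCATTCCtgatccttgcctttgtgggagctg
NTRK3: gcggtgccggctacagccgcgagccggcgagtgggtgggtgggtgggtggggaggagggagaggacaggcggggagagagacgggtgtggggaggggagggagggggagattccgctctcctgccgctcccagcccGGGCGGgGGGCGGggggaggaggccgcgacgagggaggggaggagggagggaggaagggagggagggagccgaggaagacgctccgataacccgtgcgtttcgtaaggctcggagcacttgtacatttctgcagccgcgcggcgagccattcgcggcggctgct
KCNJ6: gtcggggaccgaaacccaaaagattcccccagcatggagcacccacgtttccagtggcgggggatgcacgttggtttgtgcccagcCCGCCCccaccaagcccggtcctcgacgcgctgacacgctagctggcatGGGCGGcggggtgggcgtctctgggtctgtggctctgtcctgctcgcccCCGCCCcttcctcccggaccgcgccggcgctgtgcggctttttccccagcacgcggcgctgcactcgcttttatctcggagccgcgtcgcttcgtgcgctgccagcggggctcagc
The first 3 hold the E-box and the last 2 the GC box, and GPX2 holds both.

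The other keratins were mostly lower or near their KRT19-high level. Of 19 keratins listed, 12 had enough UMIs, with a median log2 ratio of -0.23, 0 higher and 2 lower. KRT18, the most abundant type I keratin of simple epithelia here, had 5853 CPM in the KRT19-zero and 8233 CPM in the KRT19-high pool (ratio 0.711, interval 0.707 to 0.715, log2 -0.49). Its partner KRT8 had 2378 and 3286 CPM (ratio 0.724, interval 0.717 to 0.730, log2 -0.47). Both lay just inside the threshold, and both were below 0 in 18 of the 22 gRNAs.

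KRT7, the other type II keratin of simple epithelia, had 3844 and 4352 CPM (log2 -0.18), and the hair keratin KRT81 had 8201 and 7678 CPM (log2 0.10). KRT81 shares sequence with KRT86, so reads can be split between them, and KRT86 stood at 4.83 and 3.27 CPM. The 2 lower keratins were KRT15, a basal-cell keratin (1.34 against 4.75 CPM, log2 -1.30), and KRT16, a keratin of stressed epidermis (0.669 against 1.92 CPM, log2 -0.81). KRT15 lies next to KRT19, and KRT16 within 81.5 kb of it. Both met the minimum of UMIs only through the KRT19-high pool, with 28 and 14 UMIs in the KRT19-zero pool. KRT80 (log2 -0.27), KRT10 (-0.28), KRT17 (-0.12) and KRT20 (-0.18) lay below 0, and KRT4 (0.38) above it, with 27.3% of its KRT19-zero UMIs in 1 cell.

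Secretory epithelial genes had the lowest median of the 23 lists, which were chosen with earlier results of these data known. Of 35 listed, 22 were measured, 10 were lower and 0 higher, with a median log2 ratio of -0.37. Their summed level was 351 CPM in the KRT19-zero and 754 CPM in the KRT19-high pool (ratio 0.465). Over the 5 classes of KRT19 count it stood at 351, 397, 541, 669 and 812 CPM. GPX2 (169 against 389 CPM) and AGR2 (68.3 against 177 CPM) made up most of the sum in both pools. The 10 were CEACAM6, AGR2, TM4SF4, GPX2, MUC5AC, LCN2, TSPAN1, MUC5B, TSPAN8 and MUC13. The adhesion molecule CEACAM6 had 9.99 against 28.2 CPM, with log2 ratios from -1.84 to 0.28 over the 3 sets of cells. The list's median was -0.67 in cells without a called gRNA, -0.59 with 1 non-targeting and -0.51 with 1 targeting gRNA, and -0.69 in cells with 20000 to 50000 UMIs. With no minimum of UMIs, which takes in members near 0 CPM in both pools, it was -0.09.

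Genes of epithelial adhesion and polarity shifted slightly. Of 55, 44 were measured, with a median of -0.14, 10 above 0, 4 lower and 0 higher. The lower genes were the desmosomal plakophilin PKP2 (4.01 against 7.57 CPM), the tight junction claudin CLDN4 (1.29 against 2.89 CPM), the hemidesmosomal integrin ITGB4 (58.5 against 90.6 CPM) and the tight junction protein TJP3 (1.86 against 3.18 CPM). AP1M2, an adaptor of basolateral sorting, and CRB3, a polarity protein, lay at -0.49 and -0.48. E-cadherin, CDH1, had 9.13 against 9.97 CPM (ratio 0.92, interval 0.78 to 1.07), and EPCAM 5.35 against 4.39 CPM (ratio 1.22, interval 0.99 to 1.49), so neither differed beyond counting error. The list's median was -0.28 in cells without a called gRNA, -0.09 with 1 targeting and 0.03 with 1 non-targeting gRNA, so its direction was not the same in all sets.

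The mesenchymal list did not move the other way. Of 55 genes, 43 were measured, with a median of -0.01, 21 above 0, 2 higher and 1 lower. Vimentin, VIM, had 1683 CPM in the KRT19-zero and 1862 CPM in the KRT19-high pool (ratio 0.904, interval 0.894 to 0.914). N-cadherin, CDH2, had 25.3 and 30.9 CPM (ratio 0.82, interval 0.75 to 0.90), the transcription factor ZEB1 15.1 and 14.4 CPM (interval of the ratio 0.93 to 1.19) and fibronectin, FN1, 98.6 and 79.3 CPM (ratio 1.24, interval 1.19 to 1.30). None of these 4 passed the threshold.

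The higher genes were the ligand WNT5A (1.77 against 0.723 CPM) and the actin-binding TAGLN (70.5 against 47.1 CPM), and the lower gene was the matrix protein SPARC (1.05 against 2.16 CPM). TAGLN had 15.9% of its KRT19-zero UMIs in 1 cell and log2 ratios from -1.35 to 1.00 over the 3 sets. SNAI1 (log2 0.495) and IGFBP3 (0.49) lay just inside the threshold, and S100A4 at -0.43. Of 22 measured TGF-beta response genes, 1 was higher (ID2, 58.6 against 38.2 CPM), with a median of 0.06. Among 20 measured YAP and TEAD targets the median was -0.04, with ANKRD1 lower (12.2 against 24.4 CPM) and DLC1 higher (8.31 against 4.59 CPM).

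Cell cycle genes passed the threshold in neither direction. All 42 S phase genes were measured, with a median of 0.04, and all 53 G2/M genes, with a median of 0.10 and 42 above 0. MKI67, the proliferation marker, had 160 CPM in the KRT19-zero and 158 CPM in the KRT19-high pool (ratio 1.01, interval 0.98 to 1.05). The G2/M member furthest from 0 was ANP32E (76.3 against 61.3 CPM, log2 0.31) and the S phase member furthest was CDCA7 (24.1 against 18.2 CPM, log2 0.38).

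These medians depended on depth. In cells with 20000 to 50000 UMIs the G2/M median was 0.42 and the S phase median 0.20, and in groups formed after thinning 0.39 and 0.13. The G2/M median was 0.19 in cells without a called gRNA, 0.08 with 1 non-targeting and -0.02 with 1 targeting gRNA. Summed G2/M levels were 4106 CPM at 0 KRT19 UMIs, 4704 at 1 to 2, 4536 at 3 to 9, 4263 at 10 to 24 and 3668 at 25 or more, so the cells without KRT19 were not the highest. CDKN1A, the p53-induced inhibitor of cyclin-dependent kinases, had 81.6 against 111 CPM (log2 -0.44). Of 29 measured p53 targets, 27 lay below 0, with a median of -0.17 and BTG2 lower.

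Genes of chromosomes 2 and 17 were shifted as a whole between the groups. The 949 measured genes of chromosome 2 had a median log2 ratio of 0.15, with 80.6% above 0, and the 937 of chromosome 17, KRT19 left out, a median of -0.09, with 29.8% above 0. The 12456 genes on other chromosomes had a median of 0.00, with 49.8% above 0. In windows of 10 Mb all 25 medians along chromosome 2 lay above 0 (0.06 to 0.26) and all 9 along chromosome 17 below it (-0.13 to -0.04), so both shifts ran over the whole chromosome. The chromosome 2 median was 0.11, 0.21 and 0.15 in cells without a called gRNA, with 1 non-targeting and with 1 targeting gRNA. In the same sets the chromosome 17 median was -0.13, -0.01 and -0.06.

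Each shift could be followed in single cells. For each cell the share of its UMIs from chromosome 2 genes, mitochondrial UMIs left out, was computed from a median of 1630 such UMIs, and that of chromosome 17 genes, keratins left out, from 2128. Both shares had 2 peaks, and a cut was set, after the values were seen, in the emptiest bin of 0.1 percentage points between them, which was at 5.75% for both. Above the cut for chromosome 2 lay 1161 cells (21.8%) with a median share of 6.42%, against 4.83% in the others. Below the cut for chromosome 17 lay 382 cells (7.18%) with a median share of 5.24%, against 6.85%. Within 0.2 percentage points of the cuts lay 184 and 135 cells.

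A high chromosome 2 share was found in 288 of the 657 KRT19-zero cells (43.8%, interval 40.0005% to 47.7%) and in 388 of the 2953 KRT19-high cells (13.1%, interval 11.9% to 14.4%). Over 1 to 2, 3 to 9, 10 to 24 and at least 25 KRT19 UMIs the share of such cells was 35.8%, 24.3%, 17.1% and 9.81%. A low chromosome 17 share was found in 158 KRT19-zero cells (24.05%, interval 20.8% to 27.5%) and in 77 KRT19-high cells (2.61%, interval 2.06% to 3.25%), with 14.5%, 5.36%, 3.80% and 1.61% over the same classes. In all, 363 KRT19-zero cells (55.3%) were past at least 1 cut and 83 past both, against 444 (15.04%) and 21 of the KRT19-high cells. The intervals of the groups did not overlap for either chromosome. In cells with 1 non-targeting gRNA they did overlap for chromosome 17, at 8.22% of 73 KRT19-zero cells (3.08% to 17.04%) and 2.01% of 349 KRT19-high cells (0.810% to 4.09%), and did not for chromosome 2 (57.5% and 14.6%). A class cut from such a share is a range of values and not a cell type.

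Seen from the other side, KRT19-zero cells made up 24.8% of cells with a high chromosome 2 share, 41.4% of those with a low chromosome 17 share, 53.9% of the 154 cells with both, and 7.48% of the 3928 cells past neither cut. The median depths of these classes were 36149, 32430, 33045 and 36586 UMIs. In cells with 20000 to 50000 UMIs the shares were 27.5%, 43.0%, 56.3% and 7.27%, and after thinning to 10000 UMIs 40.9%, 55.2%, 69.5% and 15.9%. The KRT19 level was 314 CPM in cells with a high chromosome 2 share alone, 240 CPM in cells with a low chromosome 17 share alone and 685 CPM in cells with neither.

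Against cells past neither cut, chromosome 2 genes had a median log2 ratio of 0.38 in cells with a high chromosome 2 share alone, and chromosome 17 genes one of -0.38 in cells with a low chromosome 17 share alone, values the cuts themselves fixed. KRT19 had log2 ratios of -1.12 and -1.51 in the same comparisons. Of the genes highest in KRT19-zero cells, NPTX1 stood at 12.9 CPM with a high chromosome 2 share alone, 2.77 with a low chromosome 17 share alone and 1.85 with neither. CPLX2 stood at 175, 70.2 and 66.9 CPM in these classes, and KCNJ6 at 3.45, 7.42 and 2.16 CPM. Of these, CPLX2 and NPTX1 were thus high with chromosome 2 and KCNJ6 most with chromosome 17, and NPTX1 itself lies on chromosome 17, CPLX2 on chromosome 5 and KCNJ6 on chromosome 21.

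When the cells past either cut were left out, 294 KRT19-zero and 2509 KRT19-high cells remained. There the chromosome medians were 0.01 and -0.01, and the lowest 15 genes stayed lower than -0.5, with PDZK1IP1 at -1.57, GPX2 at -1.01 and AGR2 at -0.99. The secretory median was -0.45 and the keratin median -0.26. Among the highest 15, the log2 ratio shrank for all but DDIT3, PDK4 and AC092069.1. NPTX1 went from 2.27 to 0.75 and NTRK3 from 1.37 to 0.62. HHIPL2 (1.13 to 0.21), ATOH8 (1.07 to 0.42) and SLC16A6 (1.00 to 0.496) no longer passed the threshold. DDIT3 went the other way, from 0.90 to 1.46, as did PDK4, from 0.86 to 1.11, and AC092069.1, from 0.91 to 0.98. FN1, which lies on chromosome 2, went from 0.31 to 0.02. Of the lower epithelial genes, ITGB4, which lies on chromosome 17, went from -0.62 to -0.44 and CLDN4 from -0.77 to -0.16. PKP2 (-0.55) and TJP3 (-0.59) stayed past the threshold. Within cells with a high chromosome 2 share, the log2 ratios of KRT19-zero over KRT19-high were 2.00 for NPTX1, 1.72 for KCNJ6, 1.45 for NTRK3, 0.99 for HHIPL2 and 0.16 for DDIT3. All of the highest 15 lay above 0 there, and of the lowest 15 all lay below 0 except SPINK6 (1.24) and CSAG1 (0.11). The cells of both comparisons are part of the pools that chose these genes, so the genes' values here are a description and no support. DNA copy number was not measured, and the order of events between KRT19 and the chromosome shares cannot be told apart in 1 pool at 1 time.

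Around KRT19 itself (GRCh38, GENCODE 44, chromosome 17, 41523617 to 41528308, minus strand), 18 measured genes lay within 500 kb. Their median log2 ratio was -0.11, near that of the whole chromosome, with 2 lower (KRT15 and KRT16) and 0 higher. EIF1, a translation initiation factor 161 kb away, had 1841 and 1886 CPM, and JUP, the junction protein plakoglobin, 62.1 and 67.8 CPM. The ratios of EIF1, JUP, NT5C3B, ACLY and DNAJC7 ran from 0.884 to 0.976, each with an interval below 1, and none passed the threshold. Those of P3H4, FKBP10, CNP and NKIRAS2 had intervals that held 1. Whether KRT19 and its neighbours share a cause was not tested.

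Other lists gave smaller groups of genes. Of 18 measured hepatic-type secreted genes, which A549 cells express in part, 5 were lower and 2 higher, with a median of -0.31. The bile acid conjugating enzyme BAAT had 1.53 against 4.37 CPM and the fibrinogen chain FGA 1.96 against 4.29 CPM, while ADH1C was higher through 1 cell that held 98.3% of its 60 UMIs. The median was 0.14 in the 73 KRT19-zero cells with a non-targeting gRNA.

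Of 22 measured NF-kB chemokine and cytokine genes, 3 were lower (IL32, CXCL5 and CXCL3) and 0 higher, with a median of -0.19. CXCL5, a neutrophil-attracting chemokine, had 24.3 against 45.5 CPM. Among 22 measured ATF4 stress genes (median 0.13), DDIT3 and the transcription factor CEBPB (114 against 77.3 CPM) were higher. Among 31 NRF2 targets (median 0.05), HMOX1, heme oxygenase, was higher (147 against 99.6 CPM) and GPX2 lower. The aldehyde dehydrogenase ALDH3A1, one of the most abundant of them, had 1128 against 1556 CPM (log2 -0.46) and lies on chromosome 17.

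Mitochondrially encoded mRNAs were all above 0 (13 of 13, median 0.16), none past the threshold, with MT-ND1 furthest at 7172 against 5883 CPM. In cells with 20000 to 50000 UMIs their median was 0.06. Interferon-stimulated genes had a median of -0.16 over 32 measured, with SAMD9L lower (1.43 against 2.80 CPM), and a median of 0.30 in cells with 1 non-targeting gRNA. The list plotted as alveolar type 2 also holds markers of type 1 cells, and its median over 6 measured genes was -0.15. Its member past the threshold was the type 1 marker CAV1, a caveolin (324 against 464 CPM), while the type 2 genes ABCA3 (log2 -0.17), NAPSA (-0.16) and SFTPD (0.30) did not pass. Medians were 0.07 over 25 cholesterol synthesis genes, -0.01 over 25 hypoxia and glycolysis genes, where VEGFA was higher (10.8 against 7.17 CPM), and -0.02 over 22 immediate early genes. CD68, a lysosomal protein listed as a macrophage marker, was lower (28.4 against 48.6 CPM), and CD79A, a B cell marker of the same list, was higher (1.77 against 0.869 CPM).

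KRT19-zero cells were spread over many gRNAs. Of the 657 cells, 304 had no called gRNA, 73 had 1 non-targeting, 258 had 1 targeting and 22 had at least 2. KRT19-zero cells made up 14.9% of the 2045 cells without a called gRNA (interval 13.4% to 16.5%), 11.3% of the 644 with 1 non-targeting (9.0% to 14.0%), 10.9% of the 2376 with 1 targeting (9.6% to 12.2%) and 8.73% of the 252 with at least 2. After thinning to 10000 UMIs these shares were 24.1%, 22.4%, 22.1% and 17.9%. The 331 KRT19-zero cells with 1 called gRNA carried 87 different gRNAs.

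Among gRNAs with at least 10 cells, the share ran from 0% to 58.3% over 15 non-targeting gRNAs (median 8.33%) and from 0% to 54.5% over 64 targeting gRNAs (median 7.85%). No targeting gRNA (0 of 64) and no target gene (0 of 25, 4.55% to 23.7%) fell outside what single non-targeting gRNAs spanned. Since that range starts at 0%, no share could lie below it. A target also pools the cells of several gRNAs, while the range is that of single ones. That range is wide because of the non-targeting gRNA CTRL00275, with 7 of 12 cells, and the next was at 34.5%. With the next as the upper limit, 3 targeting gRNAs lay above it, CHEK1_gRNA4 (6 of 11 cells), TDG_gRNA4 (4 of 11) and UHRF1_gRNA3 (10 of 28).

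The gRNAs and targets named next were chosen after their values were seen, from the ends of the order. TUBB1_gRNA1 had 8 KRT19-zero cells of 30 (26.7%) and TUBB1_gRNA4 1 of 55 (1.82%). The target with the highest share was DHODH, the gene of a pyrimidine synthesis enzyme, with 9 of 38 (23.7%, interval 11.4% to 40.2%, 28.9% after thinning), of which DHODH_gRNA4 gave 7 of its 9 cells and DHODH_gRNA3 0 of 13. UHRF1, the gene of a DNA methylation cofactor, had 13 of 60 (21.7%, interval 12.1% to 34.2%, 43.3% after thinning), with 10 of 28 for UHRF1_gRNA3 and 2 of 27 for UHRF1_gRNA2. DNMT3A, a DNA methyltransferase gene, had 4 of 21 cells (interval 5.45% to 41.9%). TET1, the gene of a methylcytosine dioxygenase, had 32 of 186 (17.2%, interval 12.1% to 23.4%), with 7.25% for TET1_gRNA1 and 23.5% for TET1_gRNA2. Before thinning, all 4 intervals overlapped that of the non-targeting cells together, 9.0% to 14.0%. After thinning, the non-targeting cells together were at 22.4% (interval 19.2% to 25.8%). UHRF1 (43.3%), DHODH (28.9%) and TET1 (26.3%) then lay above that interval and DNMT3A (19.05%) just below it. Above it too lay TDG (31.1%), DNMT1 (29.3%) and SUV39H1 (29.2%). DNMT3B, HDAC1, HELLS, KAT2B, MTF2, MVD, SMARCD1 and TRMT112 lay below it, at 10% to 17.4%. No intervals are given for the thinned shares of single targets, so whether any differed beyond counting error was not tested. At the other end, MVD had 3 of 66 (4.55%) and SMARCD1 4 of 81 (4.94%). At 9 targeting gRNAs the share was 0%, and for the largest of these, SMARCD1_gRNA3 with 0 of 35 cells, the interval reached 10.00%.

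The chromosome shares also varied between gRNAs, whose cells may descend from few transduced cells. Cells with a high chromosome 2 share made up 0% to 92.9% of a gRNA's cells (median 20% over 79 gRNAs), and those with a low chromosome 17 share 0% to 54.5% (median 2.90%). Of the gRNAs with the most KRT19-zero cells, CTRL00275 had a high chromosome 2 share in 75% of cells and a low chromosome 17 share in 8.33%. The same shares were 72.7% and 54.5% in CHEK1_gRNA4, and 64.3% and 0% (0 of 28 cells) in UHRF1_gRNA3. In TDG_gRNA4 they were 45.5% and 18.2%. CTRL00087, with 29.4% KRT19-zero cells, had a high chromosome 2 share in 5.88% of cells and a low chromosome 17 share in 0%. TRIM28_gRNA4, the gRNA at 92.9% for chromosome 2, had 1 KRT19-zero cell of 14. What part the chromosome shares play in the spread between gRNAs was not tested.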

How the data were processed

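A CROP-seq transcriptome library and gRNA library of 1 A549 cell pool were analysed from the filtered matrix. According to the deposited matrix header, the authors made the UMI counts with Cell Ranger 3.1.0 on GRCh38, for 33538 genes and 120 gRNAs, and the counts are not normalized. The submitters' processing notes also name R 4.2.0 and Seurat 4.1.0.

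Barcodes under 10000 gene UMIs were left out. A gRNA was called by a mixture of 2 Gaussians on its log10 UMIs (posterior over 0.5, 10 starts), and no doublet caller was run. The paper reports mutant gRNAs in some cells without a called gRNA and in some with 1 called gRNA. Cells without a called gRNA are therefore not the same as cells without a gRNA. UMIs were pooled by group and compared as log2 CPM ratios with 1 CPM added, for genes reaching 50 UMIs in 1 of the pools, with a log2 ratio of 0.5 in size as the threshold. Named were the 15 highest and the 15 lowest genes that met these conditions. A gene needed a UMI in at least 5% of the cells of the higher pool, and at most 20% of its UMIs there in 1 cell. It also needed the same sign in cells without a called gRNA, with 1 non-targeting and with 1 targeting gRNA. Also named were the measured keratins, the 6 members furthest from 0 of the epithelial, mesenchymal and cell cycle lists, or some of them, and up to 4 of each other list, with VIM, CDH1, EPCAM, CDH2, FN1, ZEB1 and MKI67 whatever their values. Members of the group, the 23 gene lists and the rules were chosen with earlier results of these data known. The chromosome cuts were chosen after the values were seen.

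Intervals for shares are exact Clopper-Pearson and those for ratios exact conditional binomial, at 95%. Positions are from GENCODE 44. Python 3.11.15, NumPy 2.4.6, SciPy 1.17.1, pandas 2.3.3, scikit-learn 1.9.0 and matplotlib 3.10.9 were used, and the pooled comparison was tested on simulated data. Alternatives changed the pseudocount, the UMI minimum, the weight of cells, their depth, the set of cells, the KRT19 thresholds, the scaling and the gRNA call, and left out cells with 2 or more gRNAs. The gRNA spacer sequences were not used here. Some single-gene results are not reported here.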

Additional observations from a re-analysis of the deposited data

How the results depend on the processing

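The alternatives were run on the 15 highest and 15 lowest genes, whose sign in the 3 sets of cells was fixed by their choice, and none of these changed sign. Among other genes whose levels are given, the sign was not the same in the 3 sets for ABCA3, ADH1C, CD79A, CEACAM6, EPCAM, JUP, KRT17, KRT20, KRT4, MKI67, NAPSA, SAMD9L, TAGLN and ZEB1. Of the values of the 30 genes under the alternatives, 399 kept their side of the threshold and 21 did not, 14 of these with 10 CPM added. Of the list medians, 247 stayed within the spread of the list and 27 moved. The counts of genes past the threshold that follow have no number tested or percent beside them. They are therefore not to be set against the 162 (1.12%) and 256 (1.78%) of 14416 genes above. Smaller sets of cells carry more counting error, which alone can put more genes past the threshold. With 10 CPM added, 22 genes were higher and 37 lower, and the epithelial median was -0.062. With each cell weighted equally, the G2/M median was 0.15 and the mitochondrial one 0.21. In cells with 20000 to 50000 UMIs, 388 genes were lower, and the medians were -0.24 for epithelial, 0.20 for S phase, 0.42 for G2/M, 0.12 for cholesterol and 0.059 for mitochondrial genes. In cells without a called gRNA, 484 genes were lower, with medians of -0.28 for epithelial and 0.19 for G2/M genes. In cells with 1 non-targeting gRNA, of which only 73 were KRT19-zero, 638 genes were higher and 651 lower, with medians of 0.028 for epithelial, 0.094 for S phase, -0.25 for p53, 0.14 for hepatic-type, 0.30 for interferon, -0.12 for cholesterol, -0.068 for ATF4 and 0.22 for mitochondrial genes. In cells with 1 targeting gRNA, 404 genes were lower, with medians of -0.020 for G2/M and -0.10 for p53 genes. The G2/M median was 0.048 against cells with at least 5 KRT19 UMIs and 0.15 against those with at least 20. With groups formed on thinned counts, 79 genes were higher, and the medians were 0.13 for S phase and 0.39 for G2/M genes. In cells past neither chromosome cut, an alternative chosen after seeing the data, the medians were -0.035 for S phase, 0.24 for G2/M and -0.046 for NRF2 genes. The share of KRT19-zero cells was 11.1% in cells with at least 20000 UMIs and 22.7% after thinning. After thinning, the median share was 23.1% over non-targeting and 20% over targeting gRNAs. The cause of these moves was not tested. With 1 pool there was no replicate to leave out, and a difference under the counting error of a gene or gRNA was not detectable at this depth. No paired analysis was possible because there was 1 pool of cells.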
